A study of Mus musculus with 4 samples.

Results

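The genes examined were 10 members of the KLF and SP families of transcription factors (*Klf3*, *Klf4*, *Klf5*, *Klf6*, *Klf9*, *Klf10*, *Klf13*, *Klf15*, *Sp1* and *Sp3*), taken from a deposited list of 15824 NFIC-bound regions (peaks) of the mouse pancreas, in which each peak is annotated with 1 gene and 9086 genes occur. A peak counted for a member when the gene name in its annotation row was that member, which gave 35 peaks at 9 of the 10 genes. Among 21887 protein-coding genes of the RefSeq annotation, 35.7% had at least 1 peak. The members were chosen with earlier results of these data known, and no test against this share was made. The only member with no assigned peak was *Klf6*.

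NFIC-bound chromatin was recovered from whole pancreas of wild-type mice with an antibody to NFIC (Bethyl), and 3 such ChIP libraries and 1 library of input DNA were sequenced. The strain is labelled "Mixed", and the age is 8 to 12 weeks in the deposited description and a narrower range in the paper. No allele was altered and no agent was given in either group. The deposited list is a merge over the libraries with 0 columns per sample, so no spread between mice, no value of the input and no depth can be given, and acinar, ductal, endocrine and other cells of the tissue cannot be told apart.

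KLF and SP proteins share a C-terminal DNA-binding domain of C2H2 zinc fingers, which reads GC-rich letters such as the GC box (GGGCGG) and the CACCC box (CCACCC), common near the start sites of genes. They differ in the N-terminal part, through which some KLF proteins bring the corepressors CtBP or Sin3A to a gene and others bring acetyltransferases. NFIC belongs to the nuclear factor I (NFI) family, whose dimers bind 2 arms, TGGC and GCCA, held apart by 5 bases. A peak here is therefore a place bound by NFIC, and the KLF or SP gene is the gene that the list names for it by the transcription start site (TSS). Some of these peaks lay nearer to the start of a non-coding gene, as given below.

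The sequences of 10 peaks are shown because they carry the results below: the 7 member peaks in the upper quartile of the peak score of the list (9.16 or more) and the 3 peaks of members upstream of the TSS within 1000 bp. All are on the plus strand of mm10, 5′ to 3′, read from the GRCm38 RefSeq genome. Capitals mark a full NFI site with at most 1 of its 8 fixed bases changed, except in *Klf10*, where they mark the single-arm letters TTGGCA, and in the last 3, where they mark GC boxes on either strand. No capitals means that no full NFI site lay in the interval. Peaks in an exon, a UTR or at a further start site are shown only as the site with 8 bases on each side, and the others as the whole interval of 173 bp.
*Klf3*, 50 bp past the TSS, site at chr5:64803564-64803576: agagttggTGCCAAGGAGCCAgaggggag
*Klf3*, 7873 bp past the TSS, chr5:64811310-64811482: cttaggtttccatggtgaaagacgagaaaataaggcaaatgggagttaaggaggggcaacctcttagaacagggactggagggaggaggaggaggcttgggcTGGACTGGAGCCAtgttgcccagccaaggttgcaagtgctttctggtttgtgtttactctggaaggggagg
*Klf3*, 8788 bp past the TSS, site at chr5:64812268-64812280: actcgcccTGGCAACTCTCCAtggggtgg
*Klf9*, 891 bp past the TSS, site at chr19:23142105-23142117: caggattcTGGCAGCGCGCCCagcccact
*Klf13*, 9642 bp past the TSS, chr7:63929187-63929359: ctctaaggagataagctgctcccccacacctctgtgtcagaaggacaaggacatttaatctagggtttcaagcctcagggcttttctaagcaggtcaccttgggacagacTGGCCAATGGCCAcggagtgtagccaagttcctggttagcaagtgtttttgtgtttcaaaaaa
*Klf10*, 21736 bp past the TSS, chr15:38278078-38278250: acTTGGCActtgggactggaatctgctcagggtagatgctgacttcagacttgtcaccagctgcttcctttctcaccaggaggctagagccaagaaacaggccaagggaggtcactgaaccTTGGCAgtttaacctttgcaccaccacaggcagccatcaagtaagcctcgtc
*Sp3*, 16797 bp upstream of the TSS, chr2:72997157-72997329: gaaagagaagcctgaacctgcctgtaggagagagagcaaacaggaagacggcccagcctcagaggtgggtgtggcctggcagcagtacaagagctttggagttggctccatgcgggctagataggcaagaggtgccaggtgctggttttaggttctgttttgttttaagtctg
*Klf3*, 426 bp upstream of the TSS, GC box at chr5:64803107-64803112: gacagctaGGGCGGggccgcgg
*Klf4*, 118 bp upstream of the TSS, chr4:55532507-55532679: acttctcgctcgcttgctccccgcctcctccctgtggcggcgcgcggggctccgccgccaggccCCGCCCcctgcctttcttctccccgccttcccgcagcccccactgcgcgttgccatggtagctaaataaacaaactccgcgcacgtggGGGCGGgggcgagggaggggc
*Sp1*, 684 bp upstream of the TSS, chr15:102405546-102405718: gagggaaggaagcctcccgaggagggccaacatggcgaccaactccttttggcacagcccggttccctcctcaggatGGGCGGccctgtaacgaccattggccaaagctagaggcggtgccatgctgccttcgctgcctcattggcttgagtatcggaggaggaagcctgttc

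Peaks were unevenly spread over the members. *Klf3* had 8, *Klf4* had 6, *Klf9* and *Klf15* had 5 each, *Klf13* and *Sp3* had 3 each, *Klf5* and *Klf10* had 2 each, and *Sp1* had 1. The first 4 genes held 24 of the 35 peaks, and 5 or more peaks were assigned to 1.65% of all protein-coding genes. The mean was 3.5 peaks per member and 0.625 per protein-coding gene.

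**Figure D1:**
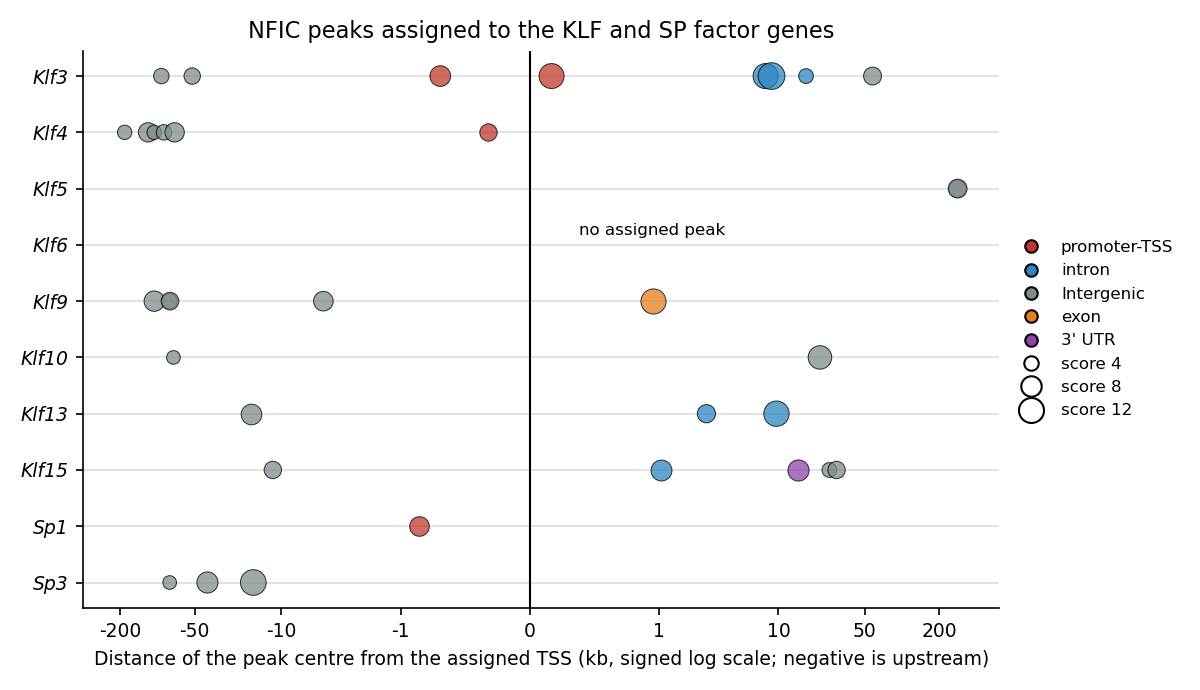
Position of each of the 35 NFIC peaks relative to the TSS of its gene (signed log scale in kb, negative upstream), 1 line per gene, with the colour for the class in the annotation and the area of the point for the peak score. *Klf3*, *Klf4*, *Klf9* and *Sp1* have a peak within 1 kb of the TSS, the points of *Klf5*, at 279986 and 281023 bp downstream, overlap, and *Klf6* has none.

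*Klf3*, a repressor that recruits CtBP, had the most peaks and also the highest score. Upstream lay peaks at 93003 bp (score 4.58), 52397 bp (5.18) and 426 bp (8.17). The score is the authors' own and its scale is not given in the sources used here, so it ranks peaks within the list, whose median was 6.57. Past the TSS the scores were 12.0 at 50 bp, 12.1 at 7873 bp, 13.7 at 8788 bp, 4.18 at 16773 bp and 6.17 at 57837 bp.

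The high *Klf3* peaks therefore fell within 9 kb after the TSS, and the highest of them had rank 1231 of 15824. That peak was centred 12 bp upstream of the start of a predicted RefSeq transcript of *Klf3*, which begins inside intron 1 of the main transcript, and the peak at 7873 bp lay 927 bp upstream of the same start. The 2 promoter peaks were 476 bp apart and the 2 intronic ones 915 bp apart. The peak at 426 bp upstream also overlapped the 3′ UTR of *Gm38457*, a predicted gene on the opposite strand, and held 4 GC boxes and 2 CACCC boxes in 200 bp with 78.5% GC. The most distant upstream peak lay in an intron of the non-coding *LOC105244755*.

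*Klf4*, a reprogramming factor and regulator of epithelial differentiation, showed the opposite layout, with every peak upstream of the TSS. Its promoter peak, centred at 118 bp (score 5.78), lay between the TSS of *Klf4* and, 117 bp from the centre, that of the divergent non-coding RNA gene *Gm12506*, and held 4 GC boxes in 200 bp, 2 of them inside the deposited interval. The other scores were 7.17 at 72624 bp, 4.58 at 88500 bp, 3.98 at 106344 bp, 7.17 at 118975 bp and 3.98 at 183781 bp. None of these 6 scores reached the upper quartile of the list. Of the distant peaks, 3 lay over *Gm12506* and that at 72624 bp was centred 16 bp past a further start site of it.

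*Klf5*, which drives growth of intestinal epithelium, had no peak near its own promoter. Both its peaks lay downstream, at 279986 bp (score 5.58) and 281023 bp (6.77), within the non-coding gene *Gm34061* and the former 211 bp past its start site. *Klf6*, induced on tissue injury (chr13:5861489-5870393), had no assigned peak. The peak closest to its TSS was 57718 bp upstream (score 4.38) and was given to *1700016G22Rik*, and the first one downstream was 671364 bp away, at *Pitrm1*. The territory of *Klf6*, the stretch nearest to its TSS among protein-coding genes, spanned 969 kb. Of the 347 genes with a territory at least that wide, 60.5% also had no assigned peak.

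The members whose proteins bring Sin3A are *Klf9*, *Klf10* and *Klf13*, and they held 10 peaks. *Klf9*, induced by glucocorticoid and thyroid hormones, had its highest score in its own first coding exon (12.1 at 891 bp past the TSS). Upstream the scores were 7.37 at 4502 bp, in an exon of the non-coding *2410080I02Rik*, 5.98 at 79190 bp, 4.58 at 79987 bp and 7.97 at 106054 bp. The last 3 all lay in introns of the non-coding *C330002G04Rik*.

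*Klf10*, an early gene of TGF-β signalling, had its stronger peak downstream (10.6 at 21736 bp) and a peak of 3.59 at 74260 bp upstream, measured from different start sites of the gene. The latter value is close to the lowest of the list, 3.39. *Klf13*, known for its part in late *Ccl5* expression in T lymphocytes, had peaks at 17471 bp upstream (8.17), centred 2 bp from the start of the non-coding *Gm39024*, and in intron 1 at 2556 bp (6.37) and 9642 bp (12.3) past the TSS. The *Klf13* gene body held 5 further peaks that the list gives to *E030018B13Rik*, a gene inside the same intron. Their scores were 5.58, 5.38, 4.78, 5.18 and 12.7, the last at chr7:63924976-63925148, 13853 bp past the *Klf13* TSS. Counted by the gene body, *Klf13* thus had 7 peaks in place of 2.

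*Klf15*, which controls gluconeogenesis and amino acid breakdown in liver and muscle, had scores from 4.18 to 8.56. These were 5.78 at 11659 bp upstream and, past the TSS, 8.37 at 1052 bp in an intron, 8.56 at 14398 bp in the 3′ UTR, 4.18 at 25917 bp and 5.78 at 29614 bp. None of these 5 reached the upper quartile. With each peak given to the nearest RefSeq protein-coding TSS, which adds 1 peak of score 19.3 described below, *Klf15* had 6 peaks in a territory of 62.5 kb, or 9.6 per 100 kb, the highest density of the 10 genes.

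The SP members were the ubiquitous *Sp1* and its close relative *Sp3*. *Sp1* had 1 peak, 684 bp upstream of the TSS with a score of 7.37. A further peak in the 3′ UTR of *Sp1* (score 4.18, chr15:102435132-102435304) was given to *Amhr2*, whose TSS is nearer. *Sp3* had only intergenic peaks upstream, with scores of 12.7 at 16797 bp, 8.56 at 39476 bp and 3.59 at 79631 bp. These upstream scores fell with distance from the TSS, while peaks at 197874 and 227474 bp downstream, given to other genes, had 8.17 and 12.9.

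In the promoter window from 1000 bp upstream to the TSS, 3 of the 10 members had a peak (*Klf3*, *Klf4* and *Sp1*), and 10.3% of all protein-coding genes did. Within 1000 bp of the assigned TSS on either side lay 5 of the 35 (14.3%, Wilson 95% interval 6.26 to 29.4), against 27.4% of the list, while 15 (42.9%, 28 to 59.1) lay over 50 kb away, against 17.9%. The start of a non-coding gene lay within 1000 bp of 4 peaks (11.4%, 4.54 to 26), against 6.86% of the list, and 1 of these, at the *Klf4* promoter, is also among the 5. The *Klf3* peaks at 7873 and 8788 bp are near a predicted start, as above, and are not among the 5. The median distance to the assigned TSS was 25.9 kb for the members and 10.4 kb for the list. By the class in the list, intergenic peaks made up 65.7% (49.2 to 79.2) of the members' peaks and 30.6% of the list. Intronic ones made up 17.1% (8.1 to 32.7) and 40.8%. In RefSeq, 10 of the members' intergenic peaks lay over a non-coding gene, and that of *Klf15* at 25917 bp lay in an intron of *Klf15*. This was not counted for the list. The Wilson intervals given here cover counting error alone, and several peaks of 1 gene are not independent. No test was made of these differences.

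Most of the members also lie in wide territories, but *Sp1* (39.5 kb) and *Klf15* (62.5 kb) do not. The median territory of the 10 members was 249 kb and that of all protein-coding genes 48.4 kb. With each peak given to the nearest RefSeq protein-coding TSS, the 10 genes had 45 peaks, or 1.33 per 100 kb, against 0.581 per 100 kb over all protein-coding genes. Over all genes the mean number of such peaks was 0.389 for territories under 50 kb, where *Sp1* had 1. It was 0.77 for 50 to 100 kb, where *Klf15* had 6. For 100 to 200 kb it was 1.13, and *Klf9* had 5 and *Klf10* and *Klf13* had 3 each. For 200 to 500 kb it was 1.49, and *Klf3* had 13, *Sp3* had 5 and *Klf5* had 2. For wider territories it was 1.48, and *Klf4* (696 kb) had 6 and *Klf6* (969 kb) had 1. The part of territory in the members' counts and distances was not tested.

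**Figure D2:**
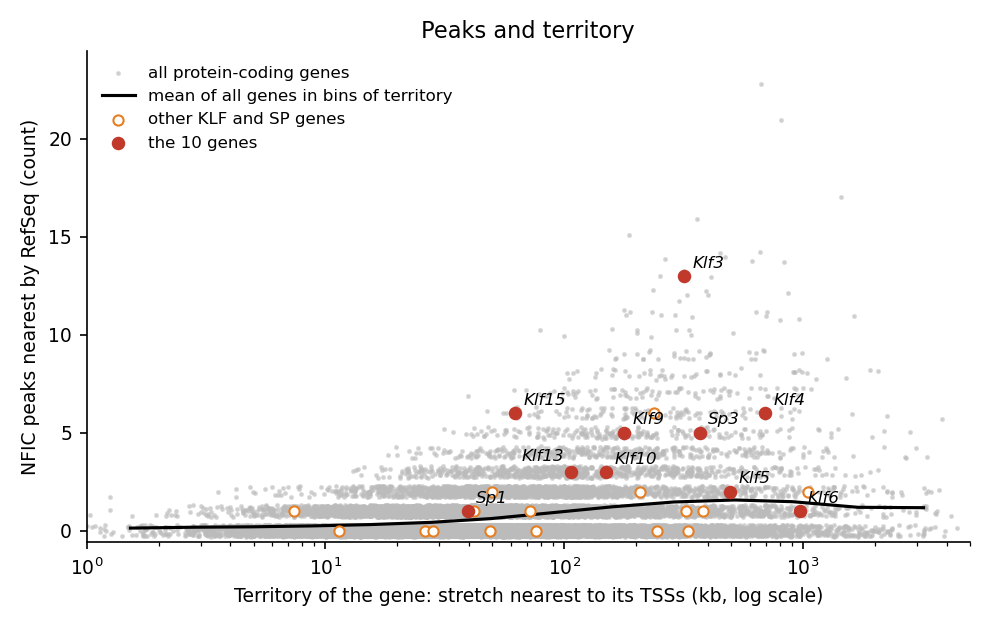
NFIC peaks nearest to each protein-coding gene by RefSeq (count, with a small random vertical shift for the grey points) against the territory of the gene (kb, log scale, from 1 kb). The black line is the mean over all genes in bins of territory; *Klf3* with 13 peaks and *Klf15* and *Klf4* with 6 each sit above it, and *Klf6* with 1 peak sits below it.

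The 10 peaks that RefSeq adds are annotated in the list with 6 neighbouring genes. For *Klf3* these were 5 peaks around *Gm3716*, from 99211 to 223717 bp upstream, and 2 of them had scores of 15.3 and 12.9. *Klf15* gained a peak of 19.3 at 44477 bp past the TSS (chr6:90506967-90507139), given in the list to *Aldh1l1*, which is higher than any of the 35. *Sp3* gained 2 downstream peaks (12.9 and 8.17), *Klf10* gained 1 (7.97) and *Klf6* gained 1 (4.38). All 35 assigned peaks kept their gene, and 80.2% did over the list. Peaks that the list gives to non-coding genes cannot keep them under this rule, so these shares cannot be compared.

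Scores of the members' peaks ran from 3.59 to 13.7 with a median of 6.77, beside a list median of 6.57. The upper quartile of the list held 7 of the 35 (20%, 10 to 35.9) and 25.5% of all peaks, ties included. These 7 belonged to *Klf3* (3 peaks), *Klf9*, *Klf10*, *Klf13* and *Sp3*. Within 10 kb of the TSS the members' median score was 8.37 (11 peaks), and beyond it was 5.78 (24 peaks). In the whole list the median was 6.57 on both sides of 10 kb. *Klf3* alone gave 8.17, 12.0, 12.1 and 13.7 among the 11. Peaks of 1 gene are not independent, and the difference in score was not tested. The deposited tag fraction of each peak had a median of 0.678 in the members and 0.684 in the list.

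**Figure D3:**
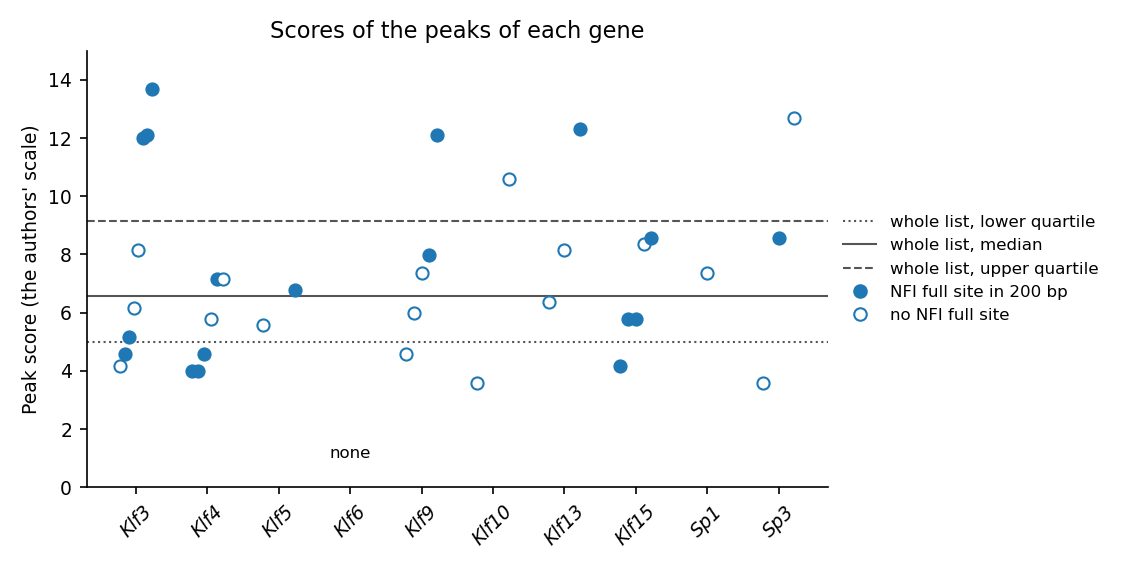
Peak score (authors' scale) of each of the 35 peaks by gene, filled where the 200 bp around the peak centre hold a full NFI site with at most 1 mismatch. Lines mark the quartiles of the whole list (4.98, 6.57 and 9.16); 7 points, from *Klf3*, *Klf9*, *Klf10*, *Klf13* and *Sp3*, lie above the upper one.

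A full NFI site with at most 1 mismatch was present in 18 of the 35 peaks (51.4%, 35.6 to 67), searched on both strands in 200 bp around the centre. The share in all peaks was 51.8%. In 100 bp around the centre the shares were 22.9% and 39.4%, and neither difference was tested. At least 1 such peak was found at 7 of the 9 genes, the exceptions being *Klf10* and *Sp1*, with 2 peaks and 1 peak. A gene with more peaks has more chances of a site. The same count was not made over all genes with a peak, so 7 of 9 cannot be set against a share. Of the 7 upper-quartile peaks 5 held a site, and those of *Klf10* and *Sp3* did not. In the *Klf3* peak at 50 bp the site was centred 3 bp from the peak centre, and in the exon of *Klf9* 6 bp from it. The *Klf15* peak in the 3′ UTR held 2 sites, at 5 and 21 bp from the centre.

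Among the 35 peaks, the site without any mismatch occurred only in the *Klf13* intron 1 peak at 9642 bp, as the letters TGGCCAATGGCCA, which is 1 of 35 (2.86%, 0.506 to 14.5) beside 13.4% of the list, a value inside that interval. Of the peaks near members that the list gives to other genes, 3 also held it: that of score 12.7 in the same intron of *Klf13*, that of 3.59 at 107189 bp upstream of *Klf3*, and that of 8.17 at 197874 bp past the *Sp3* TSS. The single arm TTGGCA was found in 14 of the 35 (40%, 25.6 to 56.4) and 33.6% of the list, among them the *Klf10* peak shown above with 2 copies. In *Klf4* the peak at 88500 bp held 3 copies of the arm.

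The letters that KLF and SP proteins themselves read were also searched in the NFIC peaks. A GC box or a CACCC box was present in 14 of the 35 (40%, 25.6 to 56.4), beside 34.4% of all peaks, and the separate shares were 22.9% and 28.6%, beside 21.1% and 19.1%. All 4 of the peaks classed as promoter-TSS held 1 of these, as did 68% of such peaks in the list. The *Klf3* peak at 8788 bp held 1 GC box and 3 CACCC boxes. These matches are letters in a window and do not show that a KLF or SP protein was bound there.

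Of 5 other motifs, the letters read by GATA factors, GATAAG, were found in 5 peaks, 2 of them at *Klf13* and 1 each at *Klf3*, *Klf4* and *Klf9* (14.3%, 6.26 to 29.4, against 7.75% of the list). The E-box CAGCTG was found in 3 (8.57%, 2.96 to 22.4, against 21.4%), at *Klf3*, *Klf10* and *Klf15*. FOX (TGTTTAC) was found in 1, the *Klf3* intron peak at 7873 bp, against 3.97%. AP-1 (TGAGTCA) and NR5A (CAAGGTCA) were found in 0 of 35, for which the Wilson interval reaches 9.89% and the limit of 3 counts that a count of 0 allows is 8.57%, and the list had 3.65% and 2.03%.

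**Figure D4:**
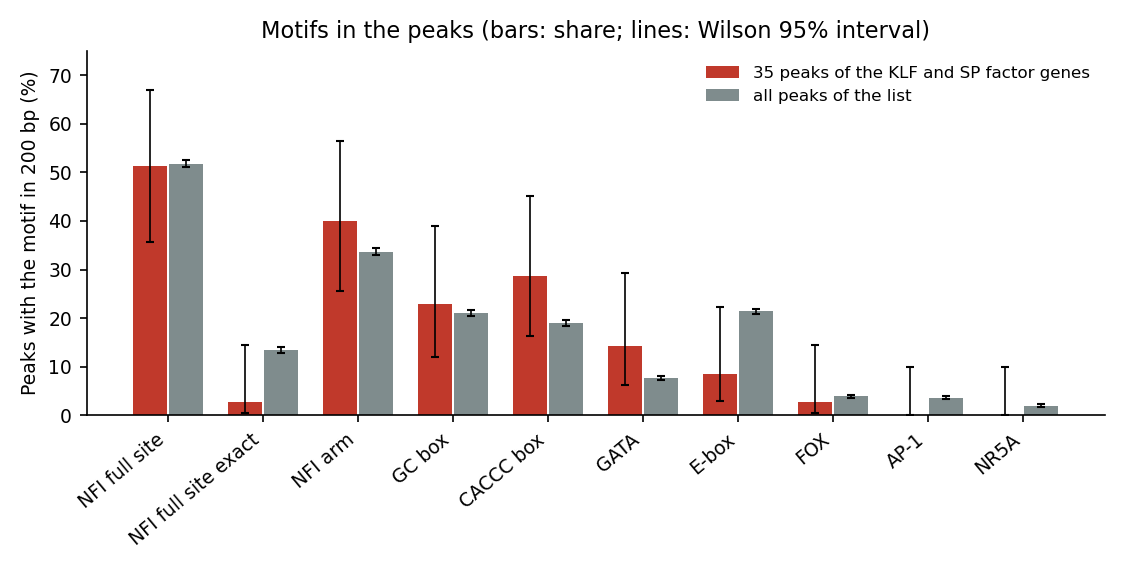
Percent of peaks with each motif on either strand in 200 bp, for the 35 peaks of the members (red) and all 15824 peaks (grey), with Wilson 95% intervals. The full NFI site is at 51.4% and 51.8%, the site without mismatch at 2.86% and 13.4% and the E-box at 8.57% and 21.4%, and the intervals of the members are wide.

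The promoters of the genes were examined in the RefSeq promoter table (GRCm38), which spans 250 bp before to 50 bp after each start and matched 8 members with 9 promoters. A GC box was present in 8 of the 9 (88.9%, 56.5 to 98) and in 35.7% of all 32851 promoters, and the median GC content was 72% against 52.7%. GC boxes were counted in 1 promoter per gene, which leaves out 1 of the 9, a further promoter of a member. The number of GC boxes was 6 at *Klf3*, 4 at *Klf4* and *Sp1*, 3 at *Klf13*, 2 at *Sp3*, 1 at *Klf6* and *Klf15* and 0 at *Klf9*. By these counts, the members with an NFIC peak upstream within 1000 bp were the 3 with the most GC boxes of the 8 matched. *Klf6*, with 1 box, had no peak there, and *Klf9*, with 0, had a peak of score 12.1 at 891 bp past its TSS. None of the other KLF and SP genes had an assigned peak upstream within 1000 bp. Among them were *Sp4*, with 5 boxes and a peak 26 bp past the TSS, and *Klf11*, with 4 boxes and its nearest peak 8872 bp upstream. The relation of GC boxes to peaks was not tested. A full NFI site was present in 1 of the 9 promoters, that of *Klf9*, against 15.3% of all.

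Among the other KLF and SP genes in the annotation, 8 of 16 had a peak, with 11 peaks in all. *Klf11*, *Klf12* and *Sp5* had 2 each and *Klf1*, *Klf2*, *Klf7*, *Sp2* and *Sp4* had 1 each, so none had 5 or more. The members were chosen with earlier results of these data known, and their counts were not tested against these. *Klf14*, named after its value was seen, had no assigned peak but 6 by nearest RefSeq protein-coding TSS. The highest scores were 12.1 at *Klf11*, 8872 bp upstream, and 10.6 at *Sp4*, 26 bp past the TSS, the one peak among them classed as promoter-TSS. Both *Sp5* peaks lay in introns of the neighbouring *Myo3b*. By the cofactor of the protein, the CtBP-binding *Klf3*, *Klf8* and *Klf12* had 10 peaks, of which 8 were at *Klf3*. The 6 KLF genes whose proteins bind acetyltransferases had 11, the 6 that bind Sin3A had 12, the 9 SP genes had 8, and *Klf15* and *Klf17*, outside these groups, had 5, all at *Klf15*. Peaks were present in each of these branches, with 6 at *Klf4* and 5 at *Klf9* as the highest counts in the acetyltransferase and Sin3A branches.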

How the data were processed

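The authors precipitated chromatin of wild-type mouse pancreas with an NFIC antibody and deposited 1 merged peak list on mm10. The submitters' processing notes name BWA, Picard and MACS2, the header shows annotation by HOMER, and the paper's methods name RUbioSeq+ and HOMER in a paragraph on downloaded data. Thresholds and versions are not given in the sources used here. The deposited peak score is a number on an unstated scale, and the deposited tag fraction is a value between 0 and 1 per peak that HOMER writes for how concentrated its tags are. Depth is unknown.

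Peaks were counted by gene name. Promoter peaks were those from -1000 bp to the TSS, as in the paper. Background genes were matched by gene ID. The RefSeq annotation and sequence of GRCm38 may differ in release from those of the authors: the distance of 27 of the 35 peaks was the same and the largest difference was 2 bp. Fixed letters were sought on both strands in windows of 200 bp. Shares have Wilson 95% intervals. With 1 merged list, no test between samples was possible, and none was made over peaks or genes. All members with every peak were named, other family members with a peak by count, and genes whose exon, intron or TSS held a member peak. Other genes named, such as *Gm3716*, *Aldh1l1* and *E030018B13Rik*, and the 10 sequences were picked with their values in view. The members and lists were chosen with earlier results of these data known. Alternatives varied the score, the annotation, merging, the promoter window, the family list and the motif search. Motif search and TSS assignment were tested on simulated data. Python 3.11, numpy 2.4.6, pandas 2.3.3, scipy 1.17.1 and matplotlib 3.10.9 were used.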

Additional observations from a re-analysis of the deposited data

How the results depend on the processing

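Of 40 values recomputed under other settings, 28 were labelled as similar to those reported and 12 as moved. The label was loose, as 45 or 46 peaks in place of 35 and 2 or 4 promoter members in place of 3 counted as similar. A cut on the score raises the median score by itself. With peaks at or above the median score, 18 peaks remained with a median score of 8.46. At or above the upper quartile 7 peaks remained, with a median of 12.1 and an NFI site in 71.4% (68% of the list). They lay at 5 of the 10 members, and 12% of all protein-coding genes had such a peak. In the promoter window 0 of the 10 members had one, beside 2.66% of all protein-coding genes. With all KLF and SP genes, 17 had a peak, 9 of the 10 members and 8 of the 16 others. Over all protein-coding genes the share was 35.7%. The NFI share was 2.86% without mismatch and 22.9% in 100 bp (39.4% of the list). A GC or CACCC box was in 20% of peaks in 100 bp (20.6% of the list) and 62.9% in 400 bp (51.1%). The window of 1000 bp on both sides of the TSS added *Klf9*, for 4 of the 10 members, beside 17.4% of all protein-coding genes. By nearest RefSeq protein-coding TSS, all 10 members had a peak, with 45 in all. Of all protein-coding genes, 29.2% (territory under 50 kb) to 51.7% (200 to 500 kb) had one by this rule. No paired analysis was possible because the list is merged and has no values per replicate. Neither the spread between mice nor the depth behind a peak is known, so a peak missing from the list, as at *Klf6*, says nothing about weaker binding.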
